A study of Schizosaccharomyces pombe with 4 samples.

Results

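In the fission yeast Schizosaccharomyces pombe, 10 genes of nitrogen starvation and nitrogen uptake were followed on Affymetrix yeast arrays: isp4, isp5, isp6, isp7, per1, put4, amt1, amt2, amt3 and fnx1. They were chosen by name, with earlier results of these data known. A gene entered if the platform's probe annotation gave its symbol to an S. pombe probe set. All 10 were found, each with 1 probe set, among 2899 named S. pombe genes, and all 10 were among the 2857 genes that passed a filter on background. Cells overexpressing the transcription factor Atf1 (labelled Atf1-OP) were set against cells with the empty vector, whose strain is labelled wild type. Each group had 2 arrays, called biological replicates in the labels. The promoter and vector behind the overexpression, the strain background beyond these names, the growth medium and its nitrogen source were not given in the sources used here, so it is not known whether the cultures had ample nitrogen.

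When fission yeast loses its nitrogen source, the TOR kinase pathway changes its output, cells stop before S phase, and they either mate or enter quiescence. Cells that lack a preferred source such as ammonium turn on transporters for other nitrogen compounds and recycle their own protein in the vacuole. Atf1, a bZIP transcription factor activated by the stress MAP kinase Sty1, is also needed for mating under nitrogen starvation. The isp genes were first isolated as transcripts induced in cells that enter sexual development after nitrogen loss.

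Of the 10 nitrogen genes, 7 rose under Atf1 overexpression and none fell. The background among all 2857 genes was 10.2% that rose and 11% that fell (limma, adjusted p under 0.05). Since the 10 were chosen with earlier results known, their share beside this background is a description, not a test. The 7 were the oligopeptide transporter gene isp4, isp5 and per1, which encode amino acid permeases, the ammonium transporter gene amt1, the vacuolar genes fnx1 and isp6, and the oxygenase gene isp7. Their fitted rises ran from 1.43-fold (per1) to 2.31-fold (isp4). The filter on background asked for 2 arrays, and amt1 and isp7 met it only with the Atf1-OP arrays counted. Each exceeded background on 1 of 2 control arrays. Among genes above background on all 4 arrays, 5 of 8 nitrogen genes rose, against 10.3% of all genes. The proline permease gene put4 and the ammonium transporter genes amt2 and amt3 did not pass. The median log2 difference of the 10 genes was 0.65, against -0.01 over all genes tested.

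Values below are quantile normalized log2 signals unless called deposited, and a difference is Atf1-OP minus control. The precision of each is limited by 2 arrays per group. Signals of different probe sets have no common scale, so levels are compared within a gene only. For 7 of the 10 genes both Atf1-OP arrays lay above both control arrays after normalization, as did 32% of all genes, and for put4, amt2 and amt3 the groups overlapped. In the deposited values both Atf1-OP arrays lay above both control arrays for each of the 10 genes, as did 60.1% of all genes.

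**Figure D1:**
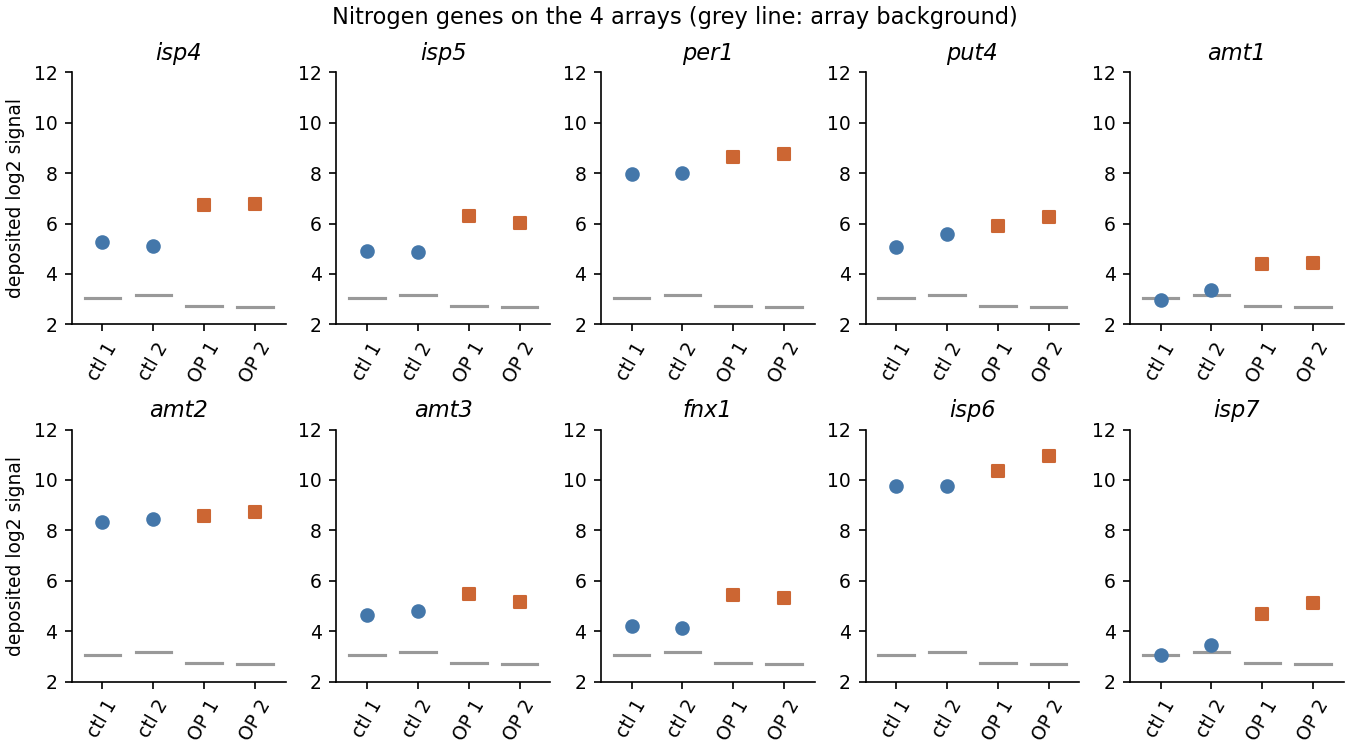
Deposited log2 signal (vertical axis) of the 10 nitrogen genes on each array (horizontal axis; ctl, empty vector control, circles; OP, Atf1-OP, squares), 1 point per array, with each array's background as a grey line. For isp4 the control arrays stand at 5.25 and 5.11 and the Atf1-OP arrays at 6.73 and 6.76, whereas amt1 and isp7 lie at background on control replicate 1.

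The peptide transporter gene isp4 (SPBC29B5.02c) had the largest rise of the 10. Its product is a membrane protein of the oligopeptide transporter family. The normalized signal was 5.43 and 5.40 on the control arrays and 6.62 and 6.62 on the Atf1-OP arrays. The groups were thus separated by a gap of 1.19 between their nearest arrays, far wider than the spread within either. The difference was 1.21 ± 0.15 (SE) in log2 units, or 2.31-fold (limma, adjusted p = 0.00415), which placed isp4 at rank 14 among the fitted differences of all 2857 genes. It was the only nitrogen gene that passed in all 4 of the fits without 1 array, with log2 differences of 1.19 to 1.22 and adjusted p values of 0.0182 to 0.0296.

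In the RefSeq gene order of assembly ASM294v3, isp4 lies directly beside atf1, the overexpressed gene. The atf1 probe set read 6.13 and 6.42 in the control and 6.83 and 7.37 with Atf1-OP, a log2 difference of 0.83 ± 0.20 (SE; limma, adjusted p = 0.0273). Thus the transcript of the overexpressed gene was higher on both Atf1-OP arrays, as the labels state, and the difference of isp4 was the larger of the pair. The nearest protein-coding gene on the far side of isp4, the ribosomal protein gene rpl26, differed by -0.03 ± 0.08 (SE; limma, adjusted p = 0.806). Whether the construct holds sequence beyond atf1 is not given in the sources used here.

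Among the 3 permeases for amino acids, the genes isp5 and per1 rose and put4 did not pass. For isp5 (SPAC1039.09) the signal was 5.10 and 5.19 in the control and 6.14 and 5.81 with Atf1-OP. The groups did not overlap, and the difference was 0.83 ± 0.18 (SE) in log2 units, or 1.78-fold (limma, adjusted p = 0.0205). The call was lost in each of the 4 fits without 1 array (limma, adjusted p = 0.0535 to 0.0934), while the difference stayed between 0.66 and 0.995 in them.

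For per1 (SPAP7G5.06), which encodes a permease of the plasma membrane, the signal was 8.03 and 8.13 in the control and 8.58 and 8.60 with Atf1-OP. This was the smallest of the rises that passed, but arrays of a group lay close together. The difference was 0.52 ± 0.09 (SE) in log2 units, or 1.43-fold (limma, adjusted p = 0.0126). With control replicate 1 left out the adjusted p was 0.105, with control replicate 2 left out it was 0.0823 (limma), and per1 passed without either Atf1-OP array.

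The put4 gene (SPAC869.10c), named for the proline permease of budding yeast, read 5.24 and 5.89 in the control and 5.69 and 6.06 with Atf1-OP. Control replicate 2 lay above Atf1-OP replicate 1, so the groups overlapped, and the control arrays differed from each other by more than the group means did. The log2 difference was 0.31 with a 95% interval of -0.26 to 0.89 (limma, adjusted p = 0.385), which covers both no change and a rise as large as that of isp5. Without control replicate 1 the difference was -0.01 and without control replicate 2 it was 0.64, so its size rested on which control array was used. With the deposited values put4 was higher by 0.76 and passed (limma, adjusted p = 0.0402).

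Amt proteins are ammonium channels of the plasma membrane, and S. pombe has a small family of them. Of its 3 genes on the array, amt1 rose, and amt2 and amt3 did not pass. For amt1 (SPCPB1C11.01) the signal was 3.13 and 3.57 in the control and 4.20 and 4.07 with Atf1-OP. The groups did not overlap, and the difference was 0.79 ± 0.23 (SE) in log2 units, or 1.73-fold (limma, adjusted p = 0.0464). This call lay close to the threshold and was lost in each of the 4 fits without 1 array, with adjusted p values of 0.0550 to 0.190 (limma), and in a fit whose variance did not follow the signal (limma without trend, adjusted p = 0.0549).

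The amt1 probe set was also among the dimmest of the 10 relative to background, which was taken on each array as the 95th percentile of budding yeast probe sets. Its deposited signal on control replicate 1 was 2.96 against a background of 3.06, and on control replicate 2 it was 3.37 against 3.16. On the Atf1-OP arrays amt1 read 4.38 and 4.43, where background was lower, at 2.74 and 2.69. The gene was thus measured above background on 1 of 2 control arrays and on both Atf1-OP arrays, and its fold rests on a control level near background.

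The amt2 gene (SPAC664.14) read 8.40 and 8.54 in the control and 8.53 and 8.59 with Atf1-OP, with overlapping groups. Its log2 difference was 0.09, with a 95% interval of -0.13 to 0.31 (limma, adjusted p = 0.496), and this bright probe set gave one of the narrowest intervals of the 10. The amt3 gene (SPAC2E1P3.02c) read 4.81 and 5.13 in the control and 5.25 and 4.85 with Atf1-OP. Its log2 difference was 0.08, with a wider 95% interval of -0.42 to 0.58 (limma, adjusted p = 0.825). The sign of the amt3 difference turned without control replicate 1 (-0.08) and without Atf1-OP replicate 1 (-0.12), and in the deposited values it was 0.61 and passed (limma, adjusted p = 0.0475). The amt1 interval of 0.26 to 1.32 overlaps both of the others, and the difference between the 3 ammonium transporter genes was not tested.

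Both vacuolar genes rose. The fnx1 gene (SPBC12C2.13c) encodes a vacuolar membrane transporter that takes amino acids into the vacuole and is known for a role in entry into quiescence. Its signal was 4.43 and 4.47 in the control and 5.21 and 5.01 with Atf1-OP, a change of 0.66 ± 0.18 (SE) in log2, or 1.58-fold (limma, adjusted p = 0.0410). Its groups were separated by 0.54, more than the distance between arrays of either group. On control replicate 2 the deposited signal was 4.11 against a background of 3.16, and in the deposited values the difference of fnx1 was 1.22. The call was lost in each of the 4 fits without 1 array (limma, adjusted p = 0.109 to 0.168), with differences of 0.56 to 0.76.

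The isp6 gene (SPAC4A8.04) encodes a vacuolar serine protease related to proteinase B of budding yeast. It read 9.87 and 9.89 in the control and 10.27 and 10.79 with Atf1-OP. The control arrays were nearly equal and the Atf1-OP arrays were not, with replicate 2 the higher. The difference was 0.65 ± 0.15 (SE) in log2 units, or 1.57-fold (limma, adjusted p = 0.0233). In a fit without 1 Atf1-OP array, the spread between the Atf1-OP arrays did not enter the error. A pass in such a fit thus does not measure that spread. The difference was 0.91 without Atf1-OP replicate 1 and 0.39 without Atf1-OP replicate 2. It did not pass with control replicate 1 or 2 left out (limma, adjusted p = 0.0926 and 0.102) or without trend (adjusted p = 0.0861).

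The isp7 gene (SPAC25B8.13c) encodes a protein of the oxoglutarate- and iron-dependent oxygenase family that is known to affect amino acid permease genes and amino acid uptake. Its signal was 3.23 and 3.67 in the control and 4.46 and 4.80 with Atf1-OP, a change of 1.18 ± 0.24 (SE) in log2, or 2.26-fold (limma, adjusted p = 0.0172). It ranked 15 among all genes, next to isp4, but its arrays were less even within each group. On control replicate 1 the deposited signal of 3.05 did not exceed the background of 3.06, whereas on control replicate 2 it was 3.44 against 3.16. The gene passed without control replicate 2 (limma, adjusted p = 0.0288). It did not pass when control replicate 1 (limma, adjusted p = 0.0604), Atf1-OP replicate 1 (0.0527) or Atf1-OP replicate 2 (0.133) was left out.

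**Figure D2:**
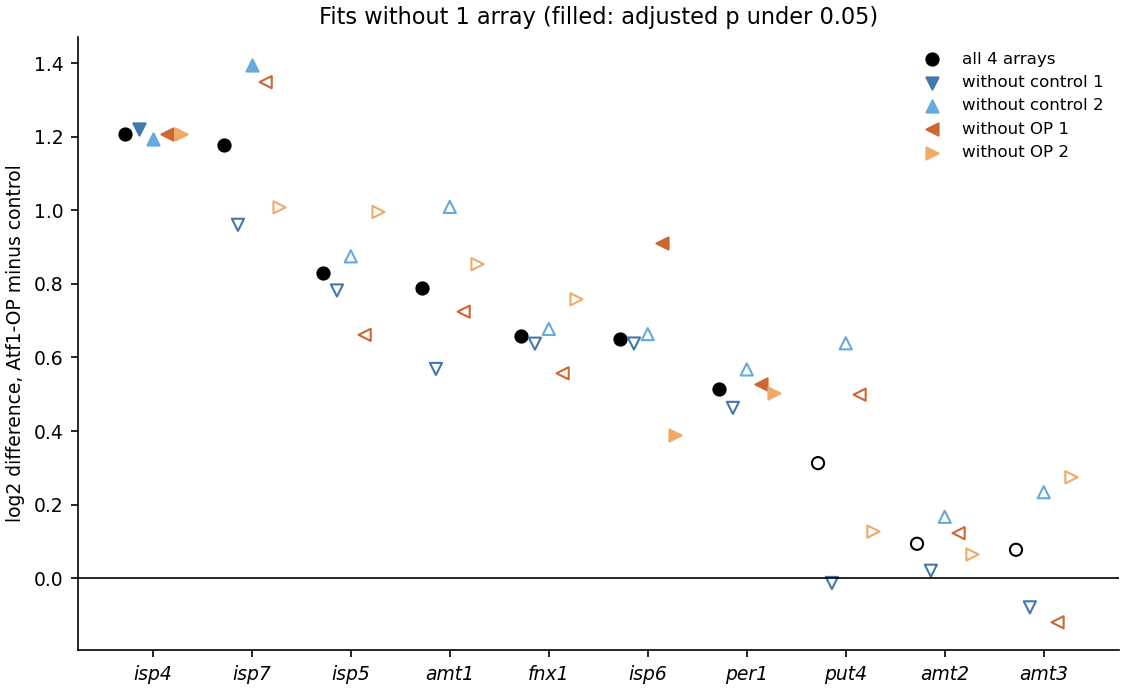
Log2 difference, Atf1-OP minus control (vertical axis), of each nitrogen gene with all 4 arrays and in 4 fits with 1 array removed; filled symbols had an adjusted p under 0.05. The symbols of isp4 lie together between 1.19 and 1.22 and are all filled, while isp5, amt1 and fnx1 are filled only with all arrays, and put4 and amt3 fall below 0 in some fits.

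Fewer nitrogen genes passed in each fit without 1 array, and fewer genes overall in 3 of the 4. Without control replicate 1, isp4 alone passed, when 2.35% of all genes rose. Without control replicate 2, isp4 and isp7 passed, when 2.21% rose. Without Atf1-OP replicate 1 (10.5% rose) and without Atf1-OP replicate 2 (5.57% rose), isp4, isp6 and per1 passed in each. In a fit whose variance did not follow the signal (limma without trend), isp4, isp5, isp7 and fnx1 passed, when 3.33% of all genes rose. Among genes above background on all 4 arrays, 5 of 8 nitrogen genes rose, against 10.3%. With 1 array left in a group, that array was assumed to vary like those of the other group. Scaling and the filter on background used all 4 arrays in the fits without 1 array. The array left out thus still shaped the normalized values and the genes tested.

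The size of the rises also depended on the scaling between arrays. As deposited, all genes had a median difference of 0.27, and 903 genes rose and 116 fell, against 292 and 315 after quantile normalization. In the deposited values 9 of the 10 nitrogen genes rose, against 31.6% of all genes, with a median of 1.06, or 0.80 above the median of all genes. With each array centred on its median, the same 7 genes passed as after quantile normalization, against 15.3% of all genes that rose, with a median of 0.84. Relative to the median of all genes in the deposited values, isp7 (1.39), isp4 (1.30) and isp5 (1.005) lay farthest above and amt2 (0.0047) lay at it. Thus isp4 and isp7 led under each of these scalings, although the order of the pair was not fixed.

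**Figure D3:**
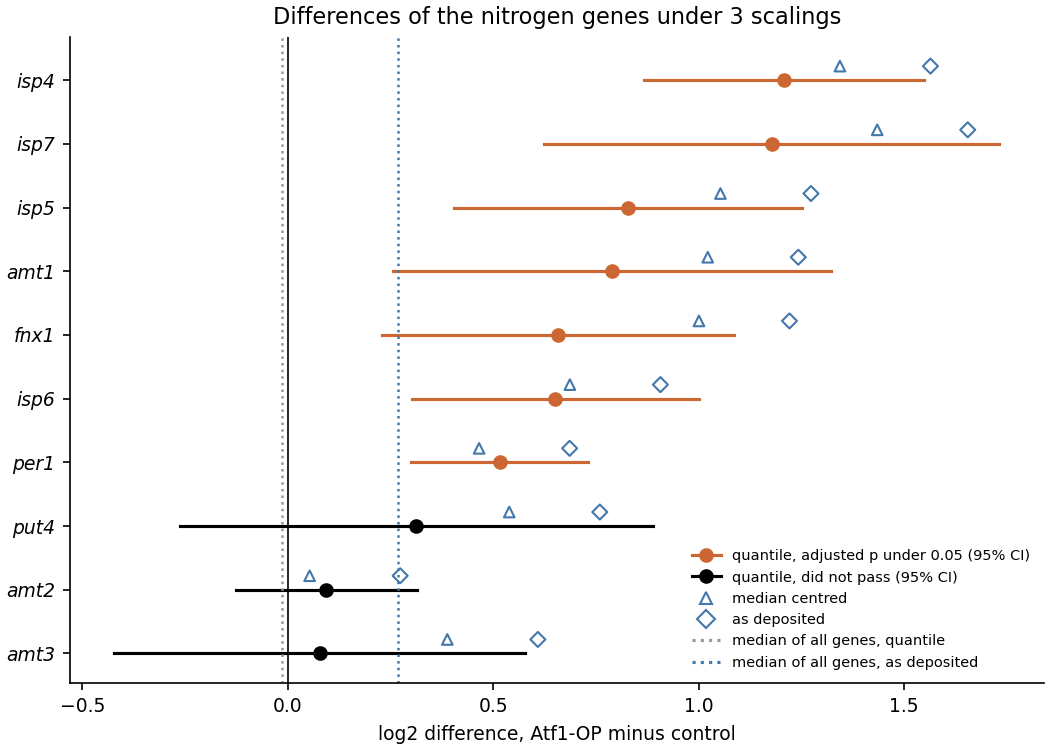
Log2 difference, Atf1-OP minus control (horizontal axis), of each nitrogen gene after quantile normalization (circles with 95% intervals; orange, adjusted p under 0.05; black, did not pass), after median centring (triangles) and as deposited (diamonds). Dotted lines mark the median of all genes, at -0.01 after quantile normalization and 0.27 as deposited; the diamond of amt2 lies on the latter.

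Several technical measures moved with the groups. Added hybridization control transcripts were lower under overexpression, at 11.0 and 10.8 against 12.02 and 11.8 (mean deposited log2 signal of 27 probe sets). Added poly-A control probe sets at the 5′ end were higher, at 4.45 and 4.78 against 3.15 and 2.97 (12 probe sets), and those at the 3′ end differed less, with means of 9.21 and 9.39 against 8.96 and 8.95. Those from the middle were higher by a mean of 1.22, and 7 ribosomal RNA probe sets of S. pombe were lower, at 10.4 and 10.5 against 11.1 and 11.1. The median RefSeq gene length was 2083 bp among genes that rose, 1554 bp among those that fell and 1875 bp among all genes tested, and the nitrogen genes ran from 1755 to 3059 bp with a median of 2170 bp. Among the 1019 genes in that length range, 11.4% rose and the median log2 difference was 0.03. The part of these shifts in the values of the nitrogen genes was not tested.

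Lists of related genes, 6 in all, placed these values beside the wider nitrogen response. Of 10 other permeases of amino acids, peptides and nucleobases, 5 were measured and none passed in limma, with a median log2 difference of -0.11. Of the 5, 2 had an unadjusted limma p under 0.05, as did 1085 of all 2857 genes. In the deposited values and with median centring 2 of the 5 rose, against 31.6% and 15.3% of all genes. The list median was 0.29 and 0.07 there, so its sign turned with the scaling. The glutathione transporter gene pgt1 stood at 0.87 (limma, adjusted p = 0.0881), the cationic amino acid permease gene cat1, which lies beside put4, at -0.39 (limma, adjusted p = 0.0943), and aat1 at 0.42 (limma, adjusted p = 0.140). Of 7 further genes of vacuolar amino acid transport and proteolysis, 6 were measured, 3 rose and none fell, against 10.2% of all genes that rose, with a median of 0.29. These were cpy1 (0.62 ± 0.09 SE; limma, adjusted p = 0.00671), the vacuolar carboxypeptidase Y gene, the aminopeptidase gene ape2 (0.34; limma, adjusted p = 0.0250) and the serine protease gene psp3 (0.34; limma, adjusted p = 0.0495). The fnx1 relative fnx2 stood at 0.24 (limma, adjusted p = 0.283). Outside this list, the aminopeptidase gene ape4, named after its value was seen, fell (-0.51; limma, adjusted p = 0.00704).

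Of 10 enzymes that assimilate or release nitrogen, 9 were measured, and 1 rose, a share near the 10.2% of all genes: glt1, the glutamate synthase gene (0.76 ± 0.13 SE; limma, adjusted p = 0.0102). The glutamate dehydrogenase gene gdh1 (0.21; limma, adjusted p = 0.0606) and the arginase gene car1 (-0.38; limma, adjusted p = 0.0738) did not pass, and the list median was 0.08. As deposited, 3 of these 9 rose, against 31.6% of all genes. Of 22 autophagy genes, 16 were measured, 2 rose and none fell, again near the share among all genes, with a median of 0.09. Of these, 7 rose in the deposited values and 4 with median centring, against 31.6% and 15.3% of all genes. The 2 that rose after quantile normalization were atg11 (0.77; limma, adjusted p = 0.0165) and atg22 (0.74; limma, adjusted p = 0.0321), the latter known in budding yeast for release of amino acids from the vacuole. The atg8 gene, whose product coats autophagosomes, stood at 0.53 (limma, adjusted p = 0.0678). Of 11 regulators of the nitrogen response and of permease trafficking, 8 were measured, none rose and 2 fell, against 11% of all genes that fell. Of the 8, 3 had an unadjusted limma p under 0.05, as did 1085 of all 2857 genes. As deposited, 2 of the 8 rose and 2 fell, against 903 and 116 of all 2857 genes. The ubiquitin ligase gene pub3 (-0.69; limma, adjusted p = 0.0156) and gad8 (-0.46; limma, adjusted p = 0.0194), which encodes a kinase downstream of TOR, fell, and gcn2, which encodes the kinase that senses amino acid shortage, stood at 0.28 (limma, adjusted p = 0.119).

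**Figure D4:**
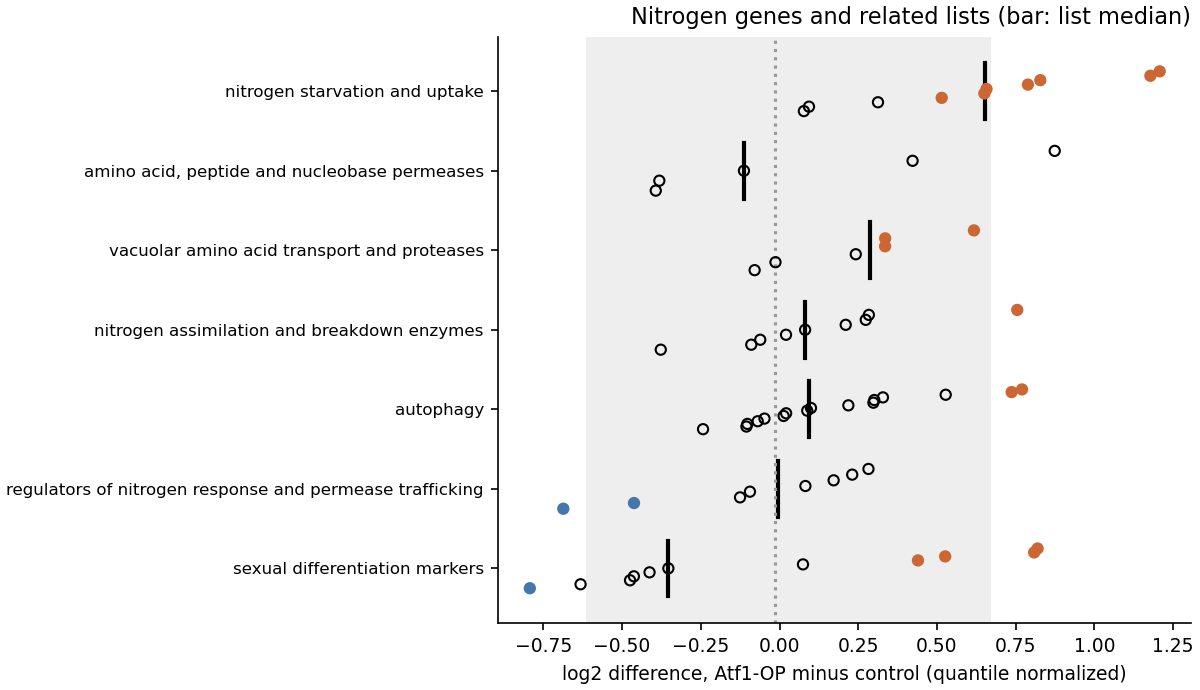
Log2 difference, Atf1-OP minus control (horizontal axis), of each measured gene of the nitrogen set and of 6 related lists (rows); orange, rose; blue, fell; open, did not pass; black bars, list medians; grey band, the 5th to 95th percentile of single genes over all genes tested, -0.61 to 0.67. The nitrogen genes have a median of 0.65, while the medians of the related lists lie between -0.35 and 0.29.

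Cells that enter sexual development carry their own transcripts, and 12 such markers were followed beside the nitrogen genes. Of 11 tested, 4 rose and 1 fell, against 10.2% and 11% of all genes. The rises were ste11 (0.82 ± 0.10 SE; limma, adjusted p = 0.00405), the master regulator of mating genes, the M-factor transporter gene mam1 (0.53; limma, adjusted p = 0.00900), the mei2 gene of meiotic entry (0.44; limma, adjusted p = 0.0234) and isp3 (0.81; limma, adjusted p = 0.0304), a spore protein gene above background on 1 of 2 control arrays. The meiotic factor gene mei4 fell by 0.79 in log2 units (limma, adjusted p = 0.0464), and the list median was -0.35. The rest did not pass: map2 (-0.63), rep1 (-0.47), map3 (-0.46), spo6 (-0.41), fus1 (-0.35) and mam2 (0.07). Without overlap between the groups, 4 of the 11 markers were higher and 5 lower, as were 913 and 983 of all 2857 genes. In the deposited values and with median centring 4 markers rose and none fell. Of all 2857 genes, 903 rose and 116 fell as deposited, and 438 rose and 345 fell with median centring. The list median was 0.20 and -0.02, so the fall of mei4 and the sign of the median depended on the scaling. The log2 of the summed signal of the 12 markers was 10.6 and 10.5 in the control and 10.9 and 11.0 with Atf1-OP. That sum is set by the brightest probe sets, ste11, mam1 and mei2 among them, and does not show the markers that were lower. The gene mei3, the inducer of meiosis, was above background on 1 of 4 arrays. In these bulk cultures a change in the share of cells that differentiate cannot be told apart from a change per cell, and the part of the markers in the rise of the nitrogen genes was not tested.

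Because isp4 lies beside the overexpressed gene, the nearest protein-coding genes on either side of each nitrogen gene were also read. Of 20 such neighbours 12 were tested, and 5 rose while none fell, where 10.2% of all genes rose. These 5 include atf1 itself, the overexpressed gene, whose rise was set by the design and says nothing about neighbours. The others, named here after their values were seen, include mmf2 next to isp5 (0.76) and the myosin gene myp2 next to isp6 (0.72). The rest were the glyoxalase gene glo1 next to fnx1 (0.64) and mdv1, a mitochondrial fission gene, next to amt2 (0.77). Adjusted p values of these genes other than atf1 were 0.00482 to 0.0372 (limma). The mdv1 gene stood beside a nitrogen gene that did not pass, and rpl26 and cat1 did not pass beside isp4 and put4.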

How the data were processed

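Total RNA was labelled with biotin by the standard Affymetrix protocol, per the labels' protocols. The authors deposited log2 probe set summaries, judged to be log2 from their range of 1.46 to 14.0; summarisation, background correction and normalization were not given in the sources used here. Of 10928 probe sets, those with 1 S. pombe gene were matched to RefSeq (ASM294v3, for names, order and lengths only) by Entrez ID (2914) or symbol (3). The brightest probe set stood for each of 2899 genes. S. pombe probe sets were quantile normalized between arrays, and 2857 genes were kept that exceeded, on at least 2 arrays, the 95th percentile of 2593 budding yeast probe sets. The Atf1-OP and control groups were tested in limma 3.58.1 (R 4.3.3; eBayes with trend) at a Benjamini-Hochberg adjusted p under 0.05 over all genes, without a replicate block. The fit was tested on simulated data. Listed genes were matched by current symbol, 56 of 72 on the array.

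Members, lists and tests were chosen with earlier results of these data known. The text names all 10 genes, atf1, the neighbours of isp4, the 3 smallest p of each list and all markers of sexual development. Markers beyond those 3, fnx2, ape4 and 4 neighbours were chosen after their values were seen. Coordinates are not printed, since the array's build is not given in the sources used here, and promoter motifs were not analysed here. Figures were drawn with matplotlib 3.10.9.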

Additional observations from a re-analysis of the deposited data

How the results depend on the processing

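Alternatives were the deposited values, median centring, no filter on background, a filter on all 4 arrays, fits without trend or with robust variances, the mean of a gene's probe sets, a replicate block and fits without 1 array. With the deposited values 1019 genes passed and the nitrogen median was 1.06. Without trend 165 genes and 4 nitrogen genes passed. In the fits without 1 array, 93 to 651 genes and 1 to 3 nitrogen genes passed, and the nitrogen median was 0.60 to 0.67. In these fits put4 ran from -0.013 (without control replicate 1) to 0.64 and amt3 from -0.12 (without Atf1-OP replicate 1; -0.08 without control replicate 1) to 0.27, so both turned sign. Requiring signal above background on all 4 arrays removed amt1 and isp7, and 5 of the remaining 8 nitrogen genes rose. With the replicate number as a block 852 genes and 7 nitrogen genes passed; arrays of the same number deviated together with r = 0.038 across genes, and the labels do not say that a number pairs arrays. Over these 12 alternatives isp4 passed in each, with log2 differences of 1.19 to 1.56, whereas amt2 passed in none. Signal near background limits isp7 and amt1, and fnx1 lay 0.95 log2 units above background on control replicate 2. The 2 arrays per group limit every value.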

Other observations

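The arrays also carry budding yeast probe sets named PER1 and PUT4, which are separate from the S. pombe probe sets of per1 and put4. Their deposited log2 signals were 2.51 to 2.86 for PER1, above background on 1 of 4 arrays, and 2.14 to 2.52 for PUT4, above background on none.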
